A study of Mus musculus with 9 samples.

Results

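The genes described here are the cytokine-signal inhibitors Cish, Socs1, Socs2 and Socs3, the receptors Prlr and Ghr, the kinase gene Jak2, and the transcription factor genes Stat5a, Stat5b and Stat3. These 10 genes, of 56748 in the expression table, were found by symbol, and all 10 passed the filter on low values that 14431 genes passed. The list was chosen with results of the cyclophosphamide against control contrast already known, in which Cish and Socs1 had small unadjusted p-values. It was therefore selected on values measured in these libraries, and the members' levels in that contrast are given as a description without a test.

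RNA was sequenced from ovarian granulosa cells, the somatic cells around the oocyte, of wild-type female C57BL/6 mice in 3 groups of 3 libraries. CTX mice received cyclophosphamide, an alkylating drug, by a 120 mg/kg injection that serves as a model of premature ovarian failure. CTX_HCQ mice received the same injection and oral hydroxychloroquine, a drug that raises lysosomal pH, at a daily 40 mg/kg that began 7 days ahead of cyclophosphamide and lasted until 4 weeks past it. Control mice received vehicle according to the series design text and are called untreated in the sample labels. The age of the mice, the follicle stages collected and whether a library stands for 1 animal or a pool are not given in the sources used here. The p-values therefore measure the spread between libraries, part of which may be technical. Drug effects on the mouse and on its granulosa cells are joined in this design, since all treatment was given in vivo.

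Prolactin and growth hormone bind single-chain cytokine receptors, PRLR and GHR, that carry the tyrosine kinase JAK2. Activated JAK2 phosphorylates the receptor and the transcription factors STAT5A and STAT5B, which then enter the nucleus and switch on target genes. Cish, Socs1, Socs2 and Socs3 are themselves classic STAT targets, and their proteins feed back on the receptor or the kinase, so that their transcripts are widely used as a readout of recent cytokine signalling. In the rodent ovary prolactin is the luteotrophic hormone: it sustains progesterone output of the corpus luteum, which forms from granulosa cells after ovulation.

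STAT5 dimers bind the palindrome TTCNNNGAA, in which N is any base. The stretch from 250 bases before to 20 bases after the RefSeq start site (build GRCm38.p6) was searched for it in the members and in all other genes. The submitters' processing notes name another build, GRCm39, for the expression values, while exon lengths of a GRCm38 annotation returned whole reads from them, so the build behind the values is uncertain. The windows show sequence only, and no binding was measured in the libraries used here. Cish is shown because its window holds the motif at 2 places, Socs3 because it holds 1, and Socs1 because, of all members, its levels lay closest to those of Cish while its window holds none. Each sequence runs 5′ to 3′ on the gene's strand, with the fixed bases of the motif in capitals.
Cish, chr9:107296409-107296678, plus strand: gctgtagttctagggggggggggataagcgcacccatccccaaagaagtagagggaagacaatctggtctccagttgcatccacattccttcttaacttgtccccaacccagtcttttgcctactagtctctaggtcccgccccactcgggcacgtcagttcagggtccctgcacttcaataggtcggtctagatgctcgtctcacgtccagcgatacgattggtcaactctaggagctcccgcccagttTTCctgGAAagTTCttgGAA
Socs3, chr11:117969347-117969616, minus strand: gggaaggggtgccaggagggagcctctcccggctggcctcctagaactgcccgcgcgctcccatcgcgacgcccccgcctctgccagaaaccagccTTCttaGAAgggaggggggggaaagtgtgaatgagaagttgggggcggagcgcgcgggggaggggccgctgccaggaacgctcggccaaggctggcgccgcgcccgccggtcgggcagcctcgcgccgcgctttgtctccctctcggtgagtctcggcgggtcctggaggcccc
Socs1, chr16:10785517-10785786, minus strand: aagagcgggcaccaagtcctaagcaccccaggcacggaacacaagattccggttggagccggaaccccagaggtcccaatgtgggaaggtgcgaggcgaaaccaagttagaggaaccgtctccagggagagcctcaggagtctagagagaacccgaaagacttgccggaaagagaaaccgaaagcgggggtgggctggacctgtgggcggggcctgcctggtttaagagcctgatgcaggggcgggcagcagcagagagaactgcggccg

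The 2 Cish motifs, TTCCTGGAA and TTCTTGGAA, spanned bases 1 to 9 and 12 to 20 after the start, counted from 1 at the first transcribed base. The Socs3 motif, TTCTTAGAA, lay from -154 to -146. A motif was also found in the window of the second of 3 Prlr start sites, chr15:10223656-10223925 on the plus strand, where TTCTAGGAA lay from -110 to -102. In all, 3 of the 9 members with an entry held a motif, in 3 of their 14 windows. Among 32851 windows of this length, 2490 (7.58%) held at least 1 motif and 121 (0.368%) held 2 or more, which places the Cish window in the smaller class. A palindrome reads the same on both strands, so each match was counted once. The annotated Cish start differs between RefSeq and the GENCODE gene models, so whether the paired motif lies just after or just before transcription begins depends on the annotation. Sequence matches of this kind describe letters, not occupied sites.

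Reads were recovered from the FPKM values and the exon lengths of the genes. They summed to between 13372028 and 17133872 per library over the genes that gave whole reads, so other genes are not counted. CTX replicate 3 stood apart from the others in its mitochondrial transcripts. They made up 28.9% of its summed FPKM (fragments per kilobase of exon, scaled to the library's mapped fragments), against 11.7% to 17.5% elsewhere. Of the recovered reads they made up 13.6%, against 4.44% to 7.34% elsewhere. The 10 granulosa markers, among them Foxl2, Fshr, Amh, Cyp19a1 and Inha, were present throughout, with a summed level of 4219 to 6328 FPKM in Control, 4873 to 7114 in CTX and 5078 to 5950 in CTX_HCQ. Inha alone gave 2865 to 4951 FPKM, so the sums mostly follow this gene. Of the 10 markers, 5 had a higher mean in CTX than in Control. Inhba and Hsd17b1 were higher in CTX without overlap, beside 8.72% of all tested genes, and the other markers overlapped. Markers of other cell types also differed between libraries, and their values are set beside the results below.

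FPKM is scaled here by the length of all annotated exons of a gene, such as 6419 bases for Cish, 2908 for Socs1 and 15339 for Prlr. This length can exceed that of the transcript present, so the order between genes is approximate. In Control libraries the 3 members highest in FPKM were Prlr at 35.9 ± 9.33, Stat5b at 32.8 ± 2.73 and Socs2 at 31.9 ± 1.51 (SD, n = 3). Their ranges overlapped. Stat5a followed at 16.5 ± 2.36 FPKM, Stat3 at 14.97 ± 1.15, Jak2 at 11.4 ± 2.03, Socs3 at 10.1 ± 0.936 and Ghr at 5.93 ± 3.83. The lowest levels were those of Cish, 4.02 ± 0.692 FPKM, and Socs1, 2.56 ± 1.09. Between neighbours in this order, ranges did not overlap for Socs2 over Stat5a and for Stat3 over Jak2, and overlapped for the 7 other pairs. In FPKM, the prolactin receptor and both STAT5 genes thus lay above the inhibitors Cish and Socs1 in granulosa cells of untreated or vehicle-treated mice. In CTX libraries Socs2 came first, at 47.4 ± 7.45 FPKM, and Cish, at 15.4 ± 5.14, stood between Socs3 and Stat3, with overlapping ranges between all neighbours. In CTX_HCQ libraries Socs2, Prlr and Stat5b again led, Stat5b at 29.6 ± 6.76 FPKM lying wholly above Stat5a at 13.97 ± 4.32, and Cish and Socs1 were last.

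**Figure D1:**
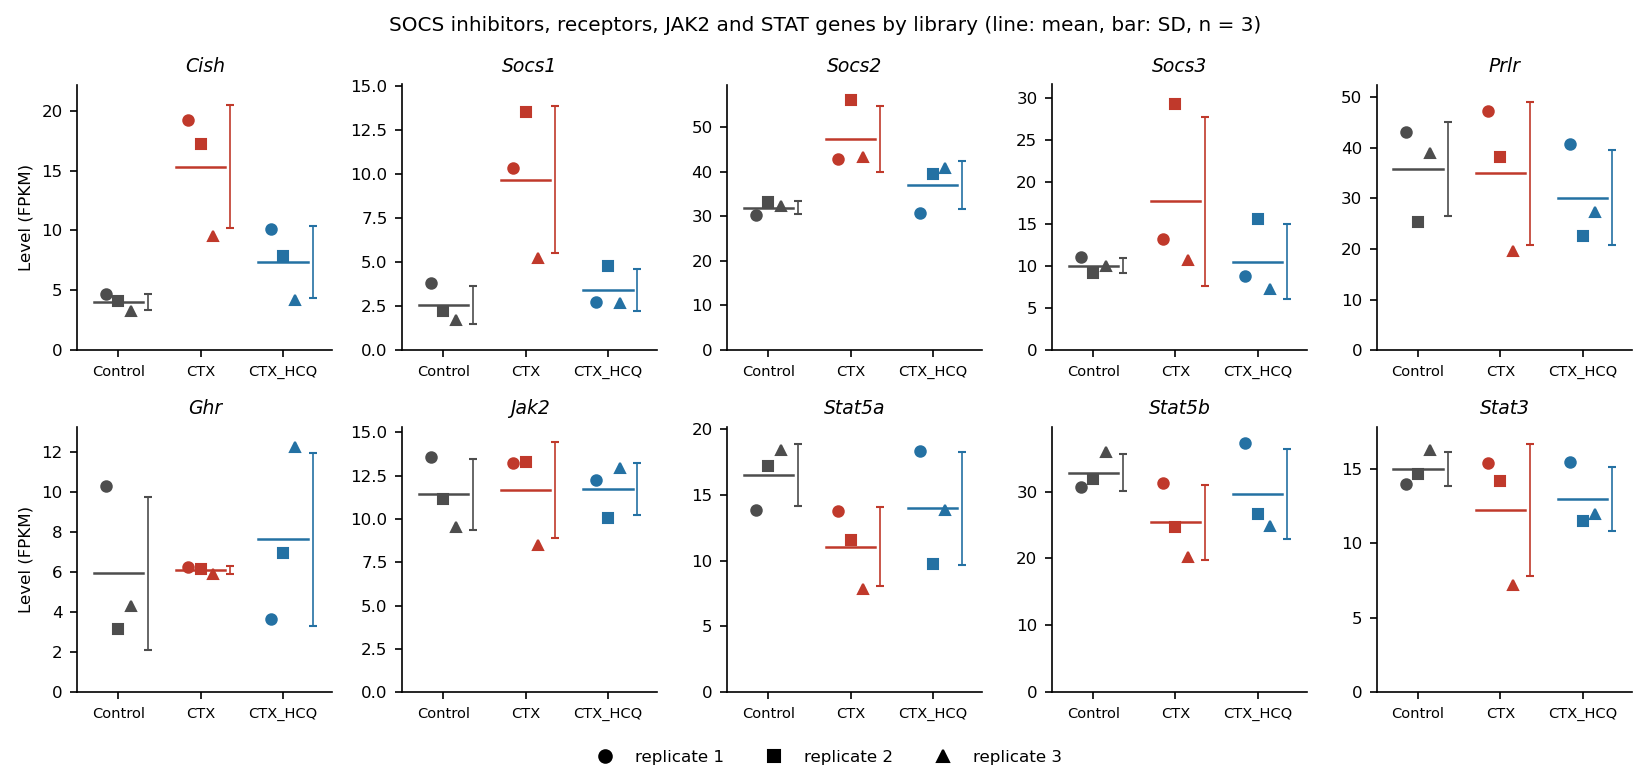
Level in FPKM of each of the 10 genes in the 9 libraries, with points for libraries, a line for the mean and a bar for the SD of 3. Cish and Socs1 lie higher in all 3 CTX libraries than in all 3 Control libraries, while Prlr, Ghr and Jak2 overlap between groups.

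Cish encodes an SH2-domain protein that docks on phosphorylated cytokine receptors and is among the most STAT5-dependent transcripts known. Its level was 4.69, 4.07 and 3.31 FPKM in Control replicates 1 to 3, 19.3, 17.3 and 9.52 in CTX, and 10.1, 7.86 and 4.18 in CTX_HCQ. All 3 CTX libraries lay above all 3 Control libraries, and CTX_HCQ libraries spanned the gap between the groups, its highest library lying above the lowest of CTX. These levels rested on 350 to 2080 reads per library. The mean was 3.82 times higher in CTX than in Control, a difference of 1.66 (SE 0.32) in log2(FPKM + 1), the scale of all differences below. CTX_HCQ differed from CTX by -0.98 (SE 0.32, 95% interval -1.68 to -0.28), and this did not pass the threshold (Benjamini-Hochberg adjusted p = 0.710 by limma). Without CTX_HCQ replicate 3, the lowest of its group, that difference was -0.67, and without CTX replicate 3 it was -1.27. CTX_HCQ against Control gave 0.68 (95% interval -0.03 to 1.38; adjusted p = 1 by limma). Of all 50-base stretches in the annotated Cish transcripts, 9.35% also occur in other gene models, mainly the predicted genes Gm17041 and Gm17040, so part of its reads may have been assigned otherwise.

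Socs1, whose protein binds JAK kinases directly and blocks their activity, followed a like order. Control replicates 1 to 3 held 3.79, 2.2 and 1.69 FPKM, CTX libraries 10.3, 13.5 and 5.21, and CTX_HCQ libraries 2.76, 4.8 and 2.67. CTX lay above both other groups with no overlap, although its lowest library, replicate 3, was near the highest of CTX_HCQ. The mean level was 3.79 times higher in CTX than in Control, a log2 difference of 1.54 (SE 0.34). CTX_HCQ stood at 0.352 of the CTX mean, a log2 difference of -1.23 (SE 0.34, 95% interval -1.98 to -0.48; adjusted p = 0.522 by limma). Against Control the CTX_HCQ difference was 0.32 (SE 0.34; adjusted p = 1 by limma). Socs1 rested on 81 to 670 reads per library and had the lowest mean FPKM of the members in Control and CTX_HCQ, while in CTX Ghr was lower.

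Socs2, a regulator of growth hormone receptor signalling and the highest in FPKM of the inhibitors, varied over a narrower range. It measured 30.3, 33.2 and 32.4 FPKM in Control, 42.8, 56.0 and 43.4 in CTX and 30.8, 39.4 and 40.9 in CTX_HCQ. CTX libraries again lay above those of both other groups, over CTX_HCQ by 42.8 against 40.9 FPKM at the nearest libraries. The log2 differences were 0.55 (SE 0.19) for CTX against Control and -0.35 (SE 0.19, 95% interval -0.78 to 0.09; adjusted p = 0.906 by limma) for CTX_HCQ against CTX.

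Socs3, the main brake on receptors that signal through gp130 and STAT3, was high in 1 library. Its levels were 11.04, 9.18 and 10.01 FPKM in Control, 13.2, 29.3 and 10.7 in CTX, and 8.78, 15.6 and 7.26 in CTX_HCQ. CTX replicate 2 stood far above the rest, CTX_HCQ replicate 2 came next, and the groups overlapped in every comparison. The log2 difference was 0.63 (SE 0.36) for CTX against Control and 0.22 without CTX replicate 2. For CTX_HCQ against CTX it was -0.64 (95% interval -1.43 to 0.16; adjusted p = 0.906 by limma).

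**Figure D2:**
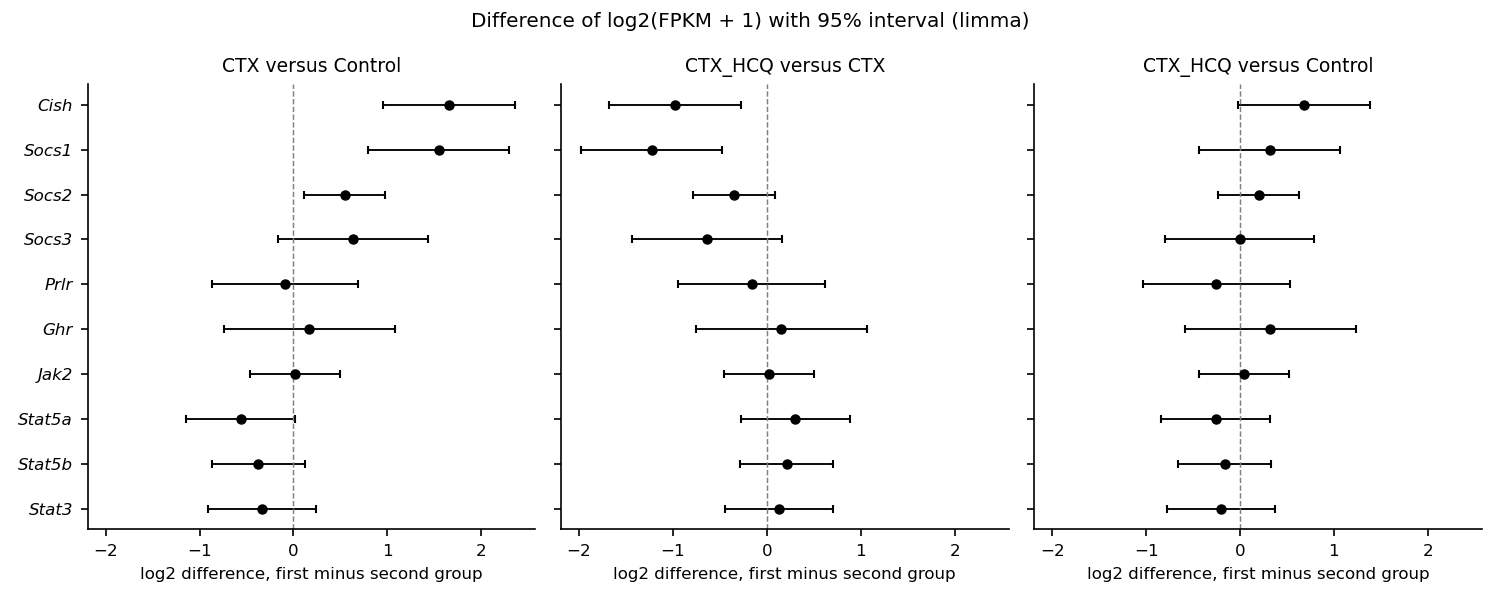
Difference in log2(FPKM + 1) between groups for each gene, with its 95% interval from limma; the dashed line marks no difference. For CTX_HCQ against CTX the intervals of Cish and Socs1 lie below 0, with adjusted p-values of 0.710 and 0.522. This comparison shares its CTX libraries with the contrast that chose the list, which tends to place such members below 0. The intervals for CTX against Control, the contrast that chose the list, are a description and not a test.

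The receptors and JAK2 showed no such order. Prlr, the prolactin receptor, measured 43.2, 25.4 and 39.1 FPKM in Control, 47.2, 38.1 and 19.6 in CTX and 40.8, 22.5 and 27.3 in CTX_HCQ. The highest and lowest libraries of each group differed by more than the group means did, so the spread within groups exceeded any difference between them. The Prlr differences were -0.09 for CTX against Control and -0.16 for CTX_HCQ against CTX (95% interval -0.94 to 0.62; adjusted p = 0.960 by limma). Ghr, the growth hormone receptor, ranged from 3.16 to 10.3 FPKM in Control, from 5.89 to 6.23 in CTX and from 3.66 to 12.2 in CTX_HCQ. Its 3 CTX libraries were close to each other and lay inside the range of both other groups. The interval for CTX_HCQ against CTX ran from -0.76 to 1.07, a range that holds both lower and higher levels of Ghr. Jak2, the kinase both receptors carry, ranged from 9.55 to 13.6 FPKM in Control, 8.5 to 13.3 in CTX and 10.1 to 12.9 in CTX_HCQ. Jak2 had the narrowest intervals among these 3 genes, with a difference of 0.03 for CTX_HCQ against CTX (95% interval -0.45 to 0.50; adjusted p = 0.996 by limma).

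The STAT genes lay on the other side of 0 from the inhibitors in CTX. Stat5a, one of 2 near-identical factors downstream of PRLR, measured 13.9, 17.2 and 18.4 FPKM in Control, 13.8, 11.6 and 7.82 in CTX and 18.4, 9.73 and 13.8 in CTX_HCQ. CTX libraries lay below all Control libraries, but the highest CTX and the lowest Control library were almost equal. The Stat5a difference was -0.56 (SE 0.26) for CTX against Control, and 0.30 (95% interval -0.28 to 0.89; adjusted p = 0.906 by limma) for CTX_HCQ against CTX. Stat5b, its paralogue, measured 30.7, 31.8 and 35.9 FPKM in Control, 31.3, 24.7 and 20.2 in CTX and 37.3, 26.6 and 24.9 in CTX_HCQ. Its groups overlapped in all comparisons, with a difference of -0.38 (SE 0.22) for CTX against Control and 0.21 (adjusted p = 0.909 by limma) for CTX_HCQ against CTX. Of the 50-base stretches of Stat5b, 10.99% also occur in Stat5a, and 8.21% of those of Stat5a in Stat5b, so their levels are partly uncertain as separate values. Stat3, the factor that IL-6 type cytokines activate, measured 14.01, 14.7 and 16.2 FPKM in Control, 15.4, 14.2 and 7.16 in CTX and 15.5, 11.5 and 11.9 in CTX_HCQ. CTX replicate 3 alone was far below the other libraries, and without it the CTX against Control difference went from -0.33 to -0.02. That library was also the lowest of all 9 for Stat5a, Stat5b, Stat3, Jak2 and Prlr and the highest in mitochondrial transcripts. Scaled to nuclear-encoded reads, the Stat5a difference between CTX and Control was -0.51. The part of the mitochondrial share in the lower STAT levels was not tested beyond this rescaling.

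**Figure D3:**
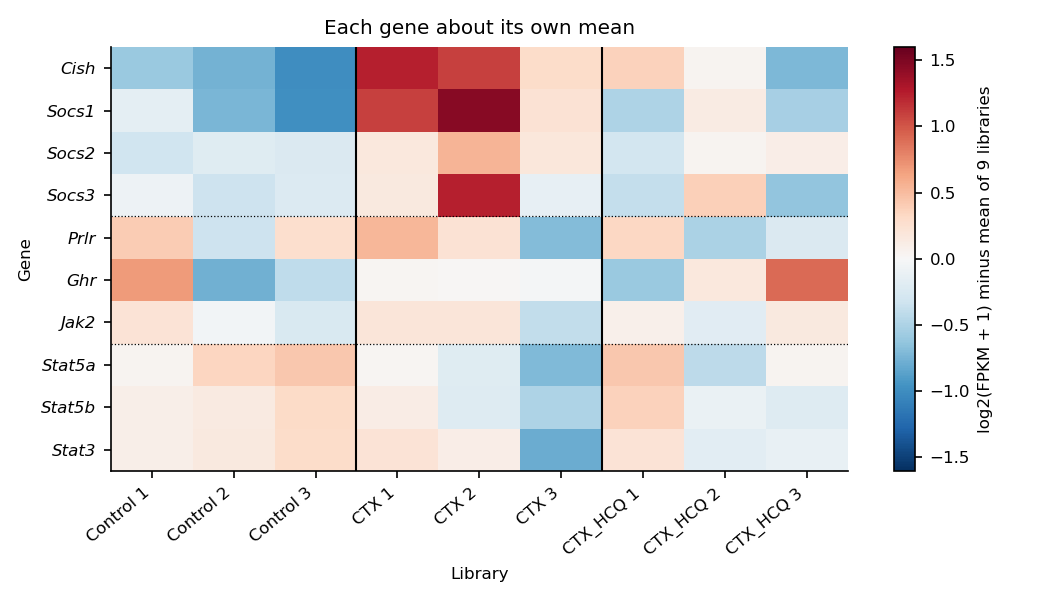
Each gene's log2(FPKM + 1) in each library minus its mean over the 9 libraries, on a colour scale from blue (lower) to red (higher). Cish and Socs1 are red in the 3 CTX libraries, and Prlr, Jak2 and the 3 STAT genes are blue in CTX replicate 3.

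Between CTX and Control, 6 members had a difference above 0 and 4 below, with a median of 0.09 against -0.0045 over all tested genes. Limma called 0 of 14431 genes (0%) in this comparison at an adjusted p under 0.05, while 1126 genes had an unadjusted p under 0.05. With voom, limma's weighting for counts, on recovered reads, 1080 of 13578 genes did, and 0 were called. Of the 10 members, 3 were higher in every CTX library than in every Control library (Cish, Socs1 and Socs2), beside 8.72% of all tested genes. Stat5a alone was lower without overlap, beside 11% of all tested genes. Because this contrast chose the list, nothing is read from these shares.

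Between CTX_HCQ and CTX, 5 members lay above 0 and 5 below, with a median of -0.07 against 0.01 over all genes. No member was called by limma, as for 0% of all tested genes. By limma, 785 of 14431 genes and 2 of 10 members (Cish and Socs1) had an unadjusted p under 0.05. Voom gave 716 such genes of 13578, and 0 calls. No member was higher in CTX_HCQ without overlap (3.45% of all genes), and 2 of 10, Socs1 and Socs2, were lower without overlap (4.57% of all genes). This comparison uses the same 3 CTX libraries as the contrast that chose the list, so members picked for high CTX values tend to come out lower against them. Between CTX_HCQ and Control, 5 members lay above 0 and 5 below, with a median of 0.02 against -0.01 over all genes. Limma again called 0% of the genes. An unadjusted p under 0.05 was found for 312 of 14431 genes (267 of 13578 by voom, with 0 calls) but for no member. No member was higher or lower without overlap in CTX_HCQ than in Control, beside 3.25% and 3.06% of all genes.

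Cish was compared with each of the other members across the 9 libraries, as log2(FPKM + 1). These relations are a description without p-values, because Cish was chosen for its difference between CTX and Control and a member that differs between the same libraries correlates with it through that difference. With Socs1 the Pearson r was 0.893 and the Spearman rho 0.883, and r was 0.692 without CTX replicates 1 and 2. For Socs2 r was 0.658 (rho 0.5) and for Socs3 0.649 (rho 0.517). Without CTX replicates 1 and 2, r was 0.283 for Socs2 and 0.323 for Socs3, so these relations rest on those libraries. With the group means removed, r was 0.646 for Socs1 and 0.483 for Socs3, and it changed sign to -0.293 for Socs2. The receptor, kinase and STAT genes gave r between -0.384 (Stat5a) and 0.26 (Jak2) over the 9 libraries.

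Pearson r over the 9 libraries was also computed against 14430 genes. Genes lacking a symbol, or known only by a provisional name of the Gm or Rik type, were passed over when the closest were listed. A gene passed over may have a larger r. The named genes whose levels lay closest to those of Cish were Ropn1l (0.931), Zfp383 (0.922), Socs1 (0.893), Ifit3b (0.89) and Coq10b (0.885). Ropn1l and Ifit3b had at most 58 and 51 reads in a library, so their patterns are known only coarsely. For Socs1 they were Ttc9 (0.951), Stk38l (0.945), Zfp383 (0.944), Rai14 (0.943) and Lrrn3 (0.938). For Prlr they were Cask (0.939), Nt5dc1 (0.931), Rnf14 (0.925), Ppt1 (0.916) and March6 (0.915), a set apart from the other 2.

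Genes that surround the members in the pathway were taken from 7 lists of 96 distinct genes, 67 of them tested, and limma called 0 of these genes in any of the 3 comparisons at adjusted p under 0.05. The ligands were scarce: 3 of 20 passed the filter (Ctf1, Clcf1 and Il4), Prl, Epo and Il3 were listed at 0 in all libraries, and Gh reached at most 2 reads. Prolactin and growth hormone come mainly from the pituitary, whose RNA was not sampled. Of the other SOCS genes, 4 of 4 were tested and their median difference was 0.08 for CTX_HCQ against CTX. Among them Socs7 had the smallest p, at a difference of 0.52 (SE 0.30; adjusted p = 0.906 by limma), with 29.3 FPKM in CTX_HCQ replicate 3 and 9.53 to 19.6 in the other libraries. Socs6 was the only one without overlap in any comparison, at 3.08 to 3.29 FPKM in Control and 3.62 to 4.19 in CTX_HCQ, beside 3.25% of all tested genes. Of the other JAK and STAT genes, 6 of 7 were tested and none had groups without overlap.

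Of the other inhibitors of the pathway, 11 of 11 were tested, and 9 lay below 0 in CTX against Control, with a median of -0.21. Ptpn11, the phosphatase SHP-2, was the only one lower without overlap, at 22.1 to 23.8 FPKM in Control and 11.6 to 22.0 in CTX, beside 11% of all tested genes, so this 1 of 11 is near the background. Cbl, an E3 ubiquitin ligase that marks activated receptors for degradation, had the smallest p of this list for CTX_HCQ against CTX, at 0.53 (SE 0.29; adjusted p = 0.906 by limma). Of the other cytokine receptors, 15 of 21 were tested, 10 lay below 0 in CTX against Control, and 4 of the 15 were lower without overlap, beside 11% of all tested genes: Il6ra, Il6st, Ifnar1 and Ifnar2. Il6st encodes gp130, the shared signalling chain of the IL-6 family, and measured 22.4, 20.5 and 19.9 FPKM in Control, 15.2, 18.8 and 13.6 in CTX and 19.1, 12.4 and 22.7 in CTX_HCQ. Il6ra, the IL-6 binding chain, was at 1.15 to 1.54 FPKM in Control and 0.585 to 0.748 in CTX. For CTX_HCQ against CTX, Ifngr1, a chain of the interferon-gamma receptor, had the smallest p of this list, at -0.39 (SE 0.20; adjusted p = 0.906 by limma), and was the only one of the 15 lower without overlap, beside 4.57% of all tested genes. Il6st, Ifnar1 and Ifnar2 were singled out after their values were seen.

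Of 20 genes known to respond to prolactin or STAT5, 16 were tested, 10 lay above 0 in CTX against Control and 6 below, with a median of 0.15. The list mixes induced genes with repressed ones such as Bcl6 and Akr1c18, so these counts and the median give no direction of a response. Without overlap, 1 was higher (Pim3) and 2 were lower (Bcl6 and Cdkn1b), beside 8.72% and 11% of all tested genes. Bcl6, a repressor whose transcription STAT5 is known to lower, went the other way from Cish: it measured 5.47, 4.14 and 4.92 FPKM in Control, 1.71, 1.40 and 2.16 in CTX, and 4.42, 1.28 and 3.06 in CTX_HCQ. Its CTX libraries lay below all Control libraries, a difference of -1.09 (SE 0.29; adjusted p = 0.639 by limma), and CTX_HCQ overlapped both groups. Cdkn1b, a cell cycle inhibitor, was 63.5 ± 9.06 FPKM in Control, 39.0 ± 15.9 in CTX and 49.9 ± 16.5 in CTX_HCQ (SD, n = 3). Pim3, a Pim survival family kinase, was at 34.6 to 36.9 FPKM in Control, 38.3 to 49.3 in CTX and 39.4 to 69.1 in CTX_HCQ. Its mean was higher in CTX_HCQ than in CTX, unlike those of Cish and Socs1. These groups overlapped, with a difference of 0.28 (95% interval -0.225 to 0.785; adjusted p = 0.906 by limma). Pim1 is the family member best known as a STAT5 target. It measured 5.54, 6.96 and 9.09 FPKM in Control, 5.61, 5.65 and 4.98 in CTX and 5.79, 5.24 and 6.65 in CTX_HCQ. Unlike Cish, Pim1 had a lower mean in CTX than in Control, with overlapping groups (difference -0.33, SE 0.19, adjusted p = 0.653 by limma). These 4 genes were singled out after their values were seen. For CTX_HCQ against CTX, the genes of this list with the smallest p were Lhcgr, Ccnd1, Hsd17b7 and A2m. Ccnd1, which encodes cyclin D1, was at 1.55, 2.24 and 2.26 FPKM in CTX and 1.17, 1.51 and 1.18 in CTX_HCQ, without overlap (difference -0.40, SE 0.24; adjusted p = 0.906 by limma). A2m, whose product binds proteases and which STAT proteins induce, was near 1 FPKM or below in most libraries. It too was lower without overlap, at 1.01 to 1.26 FPKM in CTX and 0.167 to 0.996 in CTX_HCQ. Ccnd1 and A2m are 2 of the 16 tested genes of this list, beside 4.57% of all tested genes lower without overlap.

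**Figure D4:**
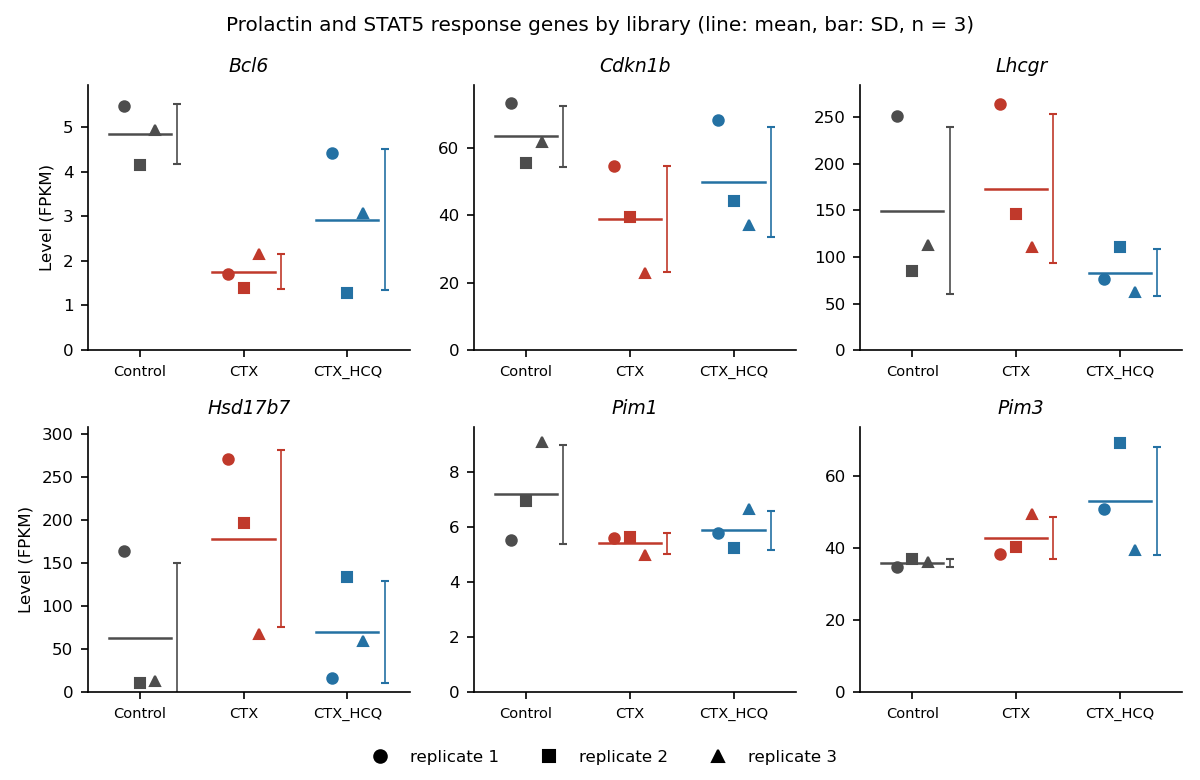
Level in FPKM of 6 prolactin and STAT5 response genes in the 9 libraries, with points for libraries, a line for the mean and a bar for the SD of 3 (cut at 0 for Hsd17b7 in Control). Bcl6 lies at 1.40 to 2.16 FPKM in CTX, below the 4.14 to 5.47 of Control.

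Lhcgr, the luteinising hormone receptor, which prolactin sustains in luteal cells, measured 252, 84.6 and 113 FPKM in Control, 264, 146 and 111 in CTX and 76.1, 111 and 62.5 in CTX_HCQ. Its difference was -0.99 (SE 0.45; adjusted p = 0.906 by limma) for CTX_HCQ against CTX. Hsd17b7, which encodes an enzyme of sterol and oestrogen synthesis that binds the prolactin receptor, varied widely within groups. It was at 163, 10.7 and 13.3 FPKM in Control, 271, 197 and 67.3 in CTX and 16.5, 133 and 59.1 in CTX_HCQ. Akr1c18, the progesterone-degrading enzyme that prolactin represses, was at 80.6 FPKM in CTX replicate 2 and at 0.244 to 8.34 in the other libraries, and was singled out after its values were seen. Lhcgr, Hsd17b7, Akr1c18 and Esr2 also serve as cell type markers below, so the 2 uses are not independent.

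Markers of several other cell types had different means in CTX and Control. In these bulk RNA libraries, fewer cells of a type and less RNA per cell cannot be told apart. The summed level of 7 luteal markers was 384 to 919 FPKM in Control, 539 to 1509 in CTX and 408 to 757 in CTX_HCQ. Of these, 6 of 7 had a higher mean in CTX than in Control, all with overlapping groups. The exception, Parm1, was lower without overlap, at 13.6 to 75.4 FPKM in Control and 7.99 to 8.31 in CTX, beside 11% of all tested genes. The 7 endothelial markers summed to 19.9 to 54.8 FPKM in Control, 34.2 to 67.3 in CTX and 22.2 to 58.1 in CTX_HCQ, and 7 of 7 had a higher mean in CTX. The 5 oviduct and cilia markers, led by Ovgp1 and Foxj1, summed to 4.65 to 74.6 FPKM in Control, 68.4 to 373 in CTX and 8.56 to 17.2 in CTX_HCQ, and 5 of 5 had a higher mean in CTX. Macrophage markers summed to 68.8 to 101 FPKM in Control, 87.7 to 112 in CTX and 64.3 to 113 in CTX_HCQ. Fibroblast and stroma markers summed to 121 to 149 FPKM in Control, 87.5 to 105 in CTX and 77.7 to 169 in CTX_HCQ, and 1 of 6 had a higher mean in CTX than in Control. The CTX sums lay below those of Control without overlap. Erythroid markers summed to 471 to 3310 FPKM in Control, 341 to 569 in CTX and 293 to 860 in CTX_HCQ, and 0 of 5 had a higher mean in CTX than in Control. Oocyte markers, led by Gdf9, summed to 168 to 264 FPKM in Control, 170 to 244 in CTX and 153 to 239 in CTX_HCQ, so oocyte RNA was present in every library. The luteal, endothelial, oviduct, macrophage and erythroid sums overlapped between CTX and Control, and so did the oocyte, theca, smooth muscle, lymphocyte and adipocyte sums. The oviduct sums of CTX_HCQ all lay below those of CTX. No marker of these lists was at 0 in all libraries.

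The marker sums and the inhibitors can be set side by side library by library. Control replicate 1 had luteal, endothelial and oviduct sums of 919, 54.8 and 74.6 FPKM, each above the lowest CTX library. Its Cish level was 4.69 FPKM and its Socs1 level 3.79, below every CTX library. These sums and levels were all the highest of the Control group. CTX_HCQ replicate 2 had an endothelial sum of 58.1 FPKM, between those of CTX replicates 2 and 1, and a luteal sum of 757. Both sums and its Socs1 level of 4.8 FPKM were the highest of CTX_HCQ. Its Cish level of 7.86 was the middle of its group and its oviduct sum of 8.56 the lowest. CTX replicate 3, with the highest oviduct sum of 373 FPKM, had the lowest Cish level of its group, 9.52. Among the CTX libraries, Cish was highest in replicate 1, which also had the highest luteal and endothelial sums, 1509 and 67.3 FPKM. The part of these cell types in the levels of Cish and Socs1 over all libraries was not tested.

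**Figure D5:**
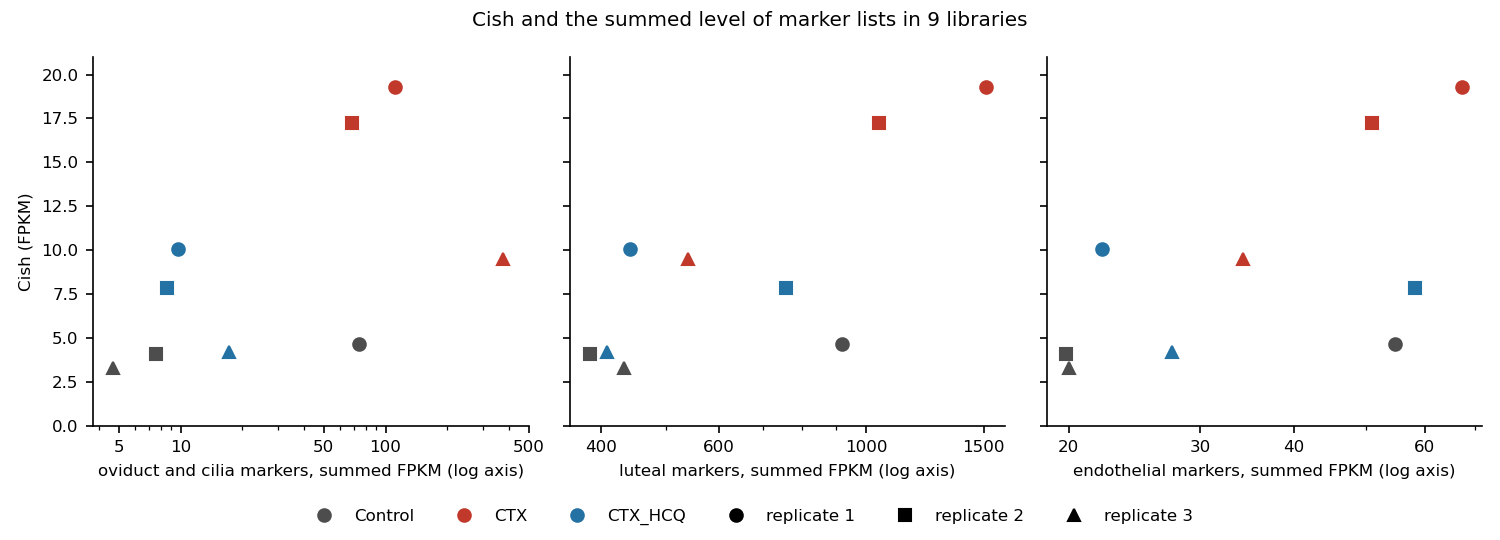
Cish level in FPKM against the summed FPKM of oviduct and cilia, luteal and endothelial markers (log axes) in the 9 libraries, with colour for the group and shape for the replicate. Control replicate 1 holds 4.69 FPKM of Cish at marker sums of 74.6, 919 and 54.8 FPKM, all the highest of the Control group.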

How the data were processed

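The deposited table holds FPKM per Ensembl gene and library, computed by the authors. Per the submitters' processing notes, DESeq2 1.20.0, featureCounts 1.5.0-p3, fastp 0.23.2 and HISAT2 2.0.5 were used, and GRCm39 is the build named. The sources used here do not give the strand setting, so reads of overlapping antisense genes cannot be told apart. Multiplying FPKM by the union exon length of GENCODE M21 gave whole reads (within 0.02 reads) for 13578 of 14431 tested genes (94.1%) and all 10 members. Differences were fitted on log2(FPKM + 1), which understates changes of low genes, with limma 3.58.1 (R 4.3.3, variance trend, all 9 libraries) for genes of at least 1 FPKM in at least 3 libraries, with Benjamini-Hochberg adjustment over all tested genes. The fit was tested on simulated data. Members and lists were chosen with earlier results of these data known. Named examples were up to 4 genes per list with the smallest p for CTX_HCQ against CTX, plus the 5 genes with the largest r to Cish, Socs1 and Prlr. For r, genes with a provisional name or no symbol were passed over. One gene that this rule names is not reported here. The libraries of a group differed beyond counting noise (chi-square per degree of freedom of at least 15.4), so all were counted. Promoter windows came from RefSeq (GRCm38.p6), where 9 of 10 members had an entry. Alternatives changed the pseudocount, filter, scaling, weights, groups fitted, block and libraries; voom on recovered reads and scaling to nuclear reads were chosen after seeing the data.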

Additional observations from a re-analysis of the deposited data

How the results depend on the processing

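Each difference was recomputed under 20 other settings. Several of these cannot change a difference, only its error: both filters, fitting only the compared groups, the replicate block, and omitting a library of neither compared group. The ranges and sign counts below include those settings, so part of the agreement was fixed in advance. The Cish difference stayed between 1.47 and 1.95 for CTX against Control and between -1.27 and -0.67 for CTX_HCQ against CTX (smallest adjusted p = 0.124 by limma), and the Socs1 difference between 1.28 and 1.92 and between -1.59 and -0.96 (smallest adjusted p = 0.0943). No member passed the threshold in either CTX_HCQ comparison under any setting run. With library weights limma called 648, 1 and 1 genes for CTX against Control, CTX_HCQ against CTX and CTX_HCQ against Control. Leaving out one library at a time gave 0 to 13 calls for the first and 0 to 10 for the second, the highest of each without Control replicate 1. Some differences near 0 changed sign, and the cause was not tested. For CTX against Control, Prlr ranged from -0.34 to 0.31, Jak2 from -0.09 to 0.22 and Ghr from -0.13 to 0.59, with the reported sign in 16, 17 and 19 of the 20 settings. For CTX_HCQ against CTX these were, without CTX replicate 3 and CTX_HCQ replicate 3 together, Stat3 at -0.136, Jak2 at -0.239 and Ghr at -0.241, with library weights, Jak2 at -0.057 and Ghr at -0.437, and for Jak2 also -0.016 with equal medians and -0.033 when scaled to nuclear reads. For CTX_HCQ against Control they were, without those 2 libraries, Socs3 at 0.206, Jak2 at -0.025 and Ghr at -0.05, with library weights, Socs2 at -0.021, Stat5b at 0.081 and Prlr at 0.26, and with voom Socs3 at 0.053. Leaving out single libraries gave, for CTX_HCQ against CTX, -0.185 to 0.318 for Stat3, -0.171 to 0.125 for Jak2, -0.52 to 0.094 for Prlr and -0.22 to 0.533 for Ghr, and for CTX_HCQ against Control, -0.298 to 0.206 for Socs3, -0.068 to 0.165 for Jak2 and -0.05 to 0.745 for Ghr. Without CTX replicates 1 and 2, the r of Cish was -0.261 with Jak2, -0.304 with Prlr and -0.514 with Stat3.

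Replicate numbers are shared between groups but did not pair the libraries: deviations of same-numbered libraries correlated between -0.457 and 0.135 over 9 pairs, and 0 libraries were closest to their own number. With the replicate number as a block limma called 0 genes in all 3 comparisons, with 847, 668 and 293 genes at an unadjusted p under 0.05. With 3 libraries a group, counts of 81 to 670 reads for Socs1 add little error beside the spread between libraries, which limits these comparisons.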

Other observations

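Of 16 genes known to respond to STAT3, 14 were tested and limma called 0 in any comparison. For CTX_HCQ against CTX, 11 of the 14 lay below 0, with a median of -0.08 against 0.01 over all tested genes. The 4 with the smallest p were Fos, Il4ra, Lrg1 and Vegfa. Fos, an immediate early gene that many stimuli induce, was at 18.3, 15.3 and 15.5 FPKM in Control, 47.7, 59.8 and 28.9 in CTX and 5.33, 83.9 and 7.15 in CTX_HCQ. Its highest library, CTX_HCQ replicate 2, was also the highest of its group for Socs3 (15.6 FPKM) and Socs1 (4.8 FPKM), and CTX replicate 2, highest of all for Socs3 and Socs1, was the next highest for Fos. Between CTX and Control, Fos and Cebpd were higher, and Junb and Myc lower, in every CTX library than in every Control library. These are 2 higher and 2 lower of 14 genes, beside 8.72% and 11% of all tested genes. The nearest CTX and Control libraries were almost equal for Cebpd, 2.36 against 2.34 FPKM, and close for Junb, 35.1 against 36.6. Myc was at 40.7, 47.8 and 57.5 FPKM in Control, 35.6, 32.4 and 37.6 in CTX and 49.8, 26.8 and 22.1 in CTX_HCQ. Fos, Il4ra, Lrg1 and Vegfa follow the rule for examples, and Cebpd, Junb and Myc were singled out after their values were seen.

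With group means removed, the r of Cish over the 9 libraries was 0.743 with Stat5b, 0.715 with Stat3, 0.653 with Prlr, 0.646 with Socs1, 0.496 with Jak2, 0.483 with Socs3 and 0.441 with Stat5a, and below 0 with Socs2 (-0.293) and Ghr (-0.352). Over all libraries without that step it was -0.231 with Stat5b, -0.064 with Stat3, 0.248 with Prlr, -0.384 with Stat5a and 0.658 with Socs2. These values were noticed after the relations had been computed and carry no test. CTX replicate 3, with the highest mitochondrial share, was the lowest of CTX for Cish, Stat5b, Stat3, Prlr, Socs1, Jak2, Socs3, Stat5a and Ghr.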
